A study of Mus musculus with 24 samples.

Results

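The striatum/thalamus and the cerebellum of the same uninjured mouse pups were compared for the miRNAs they contained. The comparison used 8 of the 24 miRNA-Seq libraries of a study of neonatal hypoxic-ischemic brain injury (HIBI), namely both regions of the right hemisphere of the 4 sham pups (pups 2, 3, 6, and 8). The pups were CD1 mice of both sexes at postnatal day 9, an outbred strain, and a sham pup had anesthesia, analgesia, and a neck dissection that left the right carotid artery open, and after a rest with the dam it spent 30 min apart from her in normoxia. Tissue was taken 30 min after that. Pups 1, 4, 5, and 7 had the artery cauterized and, after the same rest, 30 min at 8% oxygen, and their 8 libraries of the same 2 regions served as a further set of animals. Of 1531 mouse entries, the 430 with an average above 10 CPM (counts scaled to a common library total) over the 8 sham libraries were compared, and these held 99.878% of the counts. Another 1101 entries fell below that level, and 241 of them had no count in any of the 8 libraries. The sham libraries held 1607306 to 2373239 counts in the striatum/thalamus and 1733810 to 2940887 in the cerebellum, so that 10 CPM stood for 16.1 to 29.4 reads. Of the 430 miRNAs, 42 averaged under 10 CPM in 1 region and passed through the other, and the remaining 388 reached 10 CPM in both.

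A miRNA is cut from a hairpin transcript, whose arms give a 5p and a 3p product, and pairs with messenger RNAs mainly through its seed, bases 2 to 8. MiRNAs with the same seed share many predicted targets, and hairpins that lie close together are often cut from 1 transcript. The cerebellum of a mouse of this age is dominated by granule neurons, whose precursors are still dividing in the external granular layer. The striatum holds mostly GABAergic spiny neurons and the thalamus mostly glutamatergic relay neurons, and the dissection kept these structures in a single sample. Each library came from whole tissue, so that fewer cells of a type and less of a miRNA per cell cannot be told apart in any result.

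The mature sequences behind the main differences, from RefSeq on GRCm38.p6 (364 of the 430 miRNAs matched an entry there), are printed 5′ to 3′ with the seed in capitals. First are miRNAs with an excess in the cerebellum, shown because they fall in 4 groups that share a locus or a seed.
miR-182-5p: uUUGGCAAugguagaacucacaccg
miR-183-5p: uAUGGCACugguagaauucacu
miR-216a-5p: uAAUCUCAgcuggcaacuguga
miR-216b-5p: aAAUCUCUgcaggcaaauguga
miR-217-5p: uACUGCAUcaggaacugacugga
miR-15b-5p: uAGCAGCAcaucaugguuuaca
miR-16-5p: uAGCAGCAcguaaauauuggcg
miR-195a-5p: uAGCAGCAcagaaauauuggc
miR-497a-5p: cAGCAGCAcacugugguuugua
miR-17-5p: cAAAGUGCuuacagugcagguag
miR-20a-5p: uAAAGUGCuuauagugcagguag
miR-93-5p: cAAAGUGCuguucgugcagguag
miR-106b-5p: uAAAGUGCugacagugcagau
MiR-15b-5p, miR-16-5p, miR-195a-5p, and miR-497a-5p shared the seed AGCAGCA, and the last 4 shared AAAGUGC, whereas miR-216a-5p and miR-216b-5p had different seeds. Next are those with an excess in the striatum/thalamus.
miR-7080-5p: gUAGGAGCuggagguggguuugg
miR-344d-3p: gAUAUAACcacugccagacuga
miR-221-3p: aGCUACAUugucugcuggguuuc
miR-222-3p: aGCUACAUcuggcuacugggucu
miR-7a-5p: uGGAAGACuagugauuuuguugu
miR-7b-5p: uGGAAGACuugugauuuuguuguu
miR-770-3p: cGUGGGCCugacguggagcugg
miR-433-3p: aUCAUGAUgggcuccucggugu
miR-434-3p: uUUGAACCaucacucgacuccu
MiR-221-3p and miR-222-3p had 1 seed, as did miR-7a-5p and miR-7b-5p. The last set shows seeds whose members differed in direction, and they are miR-25-3p, miR-92a-3p, and miR-92b-3p on the one hand and let-7b-5p, let-7c-5p, and let-7e-5p on the other.
miR-25-3p: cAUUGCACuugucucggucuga
miR-92a-3p: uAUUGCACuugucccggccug
miR-92b-3p: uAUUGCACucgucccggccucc
let-7b-5p: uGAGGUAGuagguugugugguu
let-7c-5p: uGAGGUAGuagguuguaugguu
let-7e-5p: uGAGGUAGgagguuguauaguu

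Levels are given as CPM after TMM scaling across the 24 libraries, and differences as log2 fold changes of the striatum/thalamus over the cerebellum within pups. Differential expression (DE) was called at an adjusted p under 0.05 in edgeR's quasi-likelihood test with the pup as a block, with Benjamini-Hochberg adjustment over the 430 miRNAs. By this rule 262 miRNAs (60.9% of those tested) differed between the regions, 143 (33.3%) higher in the striatum/thalamus and 119 (27.7%) higher in the cerebellum. The balance turned under upper quartile scaling, with 121 and 148. The median log2 fold change over all 430 was -0.01. Among the 388 miRNAs that reached 10 CPM in both regions, 232 (59.8%) were called. Of the called miRNAs, 108 were over 2-fold higher in the striatum/thalamus and 89 in the cerebellum, 27 and 31 were over 4-fold higher, and 2 and 13 were over 8-fold higher. The 4 libraries of the regions did not overlap for 249 miRNAs (57.9%), of which 128 (29.8%) were higher in the striatum/thalamus and 121 (28.1%) in the cerebellum. With a fold change above 1.5 as a further criterion, 260 miRNAs (60.5%) were called, 141 (32.8%) and 119 (27.7%) by direction. Of the 143 miRNAs higher in the striatum/thalamus, 136 were higher in each of the 4 pups, and of the 119 higher in the cerebellum, 116 were. The first principal component held 72.7% of the variance of log2 levels and separated the regions, and the cerebellum of pup 6 lay closest to the striatum/thalamus on it (-9.22, against -13.7 to -18.8 for the other cerebellar libraries).

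**Figure D1:**
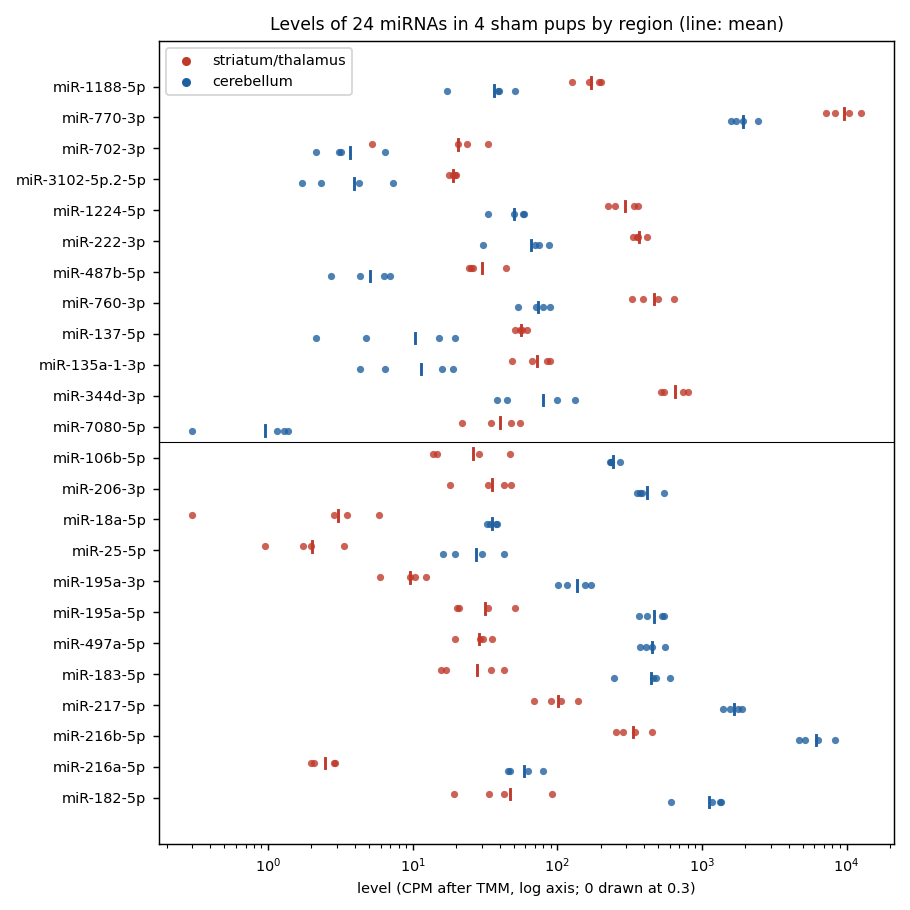
Level of the 12 called miRNAs with the largest excess in each region (x axis, CPM after TMM on a log axis, 0 drawn at 0.3), with a point for each of the 4 sham pups and a vertical line at the mean. The striatum/thalamus and cerebellum points are apart for every miRNA drawn except miR-702-3p, whose lowest striatum/thalamus library (5.28 CPM) lies under the highest cerebellar one (6.42 CPM). MiR-7080-5p, miR-216a-5p, miR-25-5p, miR-18a-5p, miR-195a-3p, miR-487b-5p, miR-3102-5p.2-5p, and miR-702-3p are among the 42 that averaged under 10 CPM in a region.

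The largest excess in the cerebellum was that of miR-182-5p, which with miR-183-5p belongs to a cluster best known from the retina, hair cells, and sensory neurons. In pups 2, 3, 6, and 8, miR-182-5p was at 92.5, 33.8, 19.2 and 43.011 CPM in the striatum/thalamus and at 1349, 1326, 607.3 and 1169.7 CPM in the cerebellum. Every cerebellar library was above every library of the striatum/thalamus (means 47.1 ± 31.8 and 1113 ± 346.5 CPM, SD, n = 4; log2 fold change -4.63, SE 0.31, adjusted p = 3.24e-06). MiR-183-5p was at 42.7, 17.1, 15.8 and 35.1 CPM against 461.3, 599.8, 246.1 and 484.2 CPM (log2 fold change -3.97, SE 0.34, adjusted p = 1.01e-05). In both miRNAs, pup 6 had the lowest cerebellar level. The hairpins lie at chr6:30165918-30165992 and chr6:30169668-30169737 (GRCm38, minus strand), with no host gene annotated on that strand. The other members of the cluster were too low to be tested, miR-96-5p with 0 counts in the striatum/thalamus and 69 in the cerebellum over the 4 libraries, miR-183-3p with 0 and 41, and miR-182-3p with 0 in both.

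MiR-216a, miR-216b, and miR-217, which are best known from the acinar cells of the pancreas, were also far higher in the cerebellum. MiR-216b-5p was the most abundant of them, with 282.8, 342.5, 455.03 and 254.1 CPM in the striatum/thalamus and 8293, 5195, 4661 and 6311 CPM in the cerebellum (log2 fold change -4.11, SE 0.31, adjusted p = 4.83e-06). MiR-217-5p was at 90.8, 105.8, 139.7 and 69.2 CPM and 1774, 1394, 1573 and 1892 CPM (log2 fold change -3.98, SE 0.28, adjusted p = 3.64e-06). Neither overlapped between the regions, and pup 6 had the lowest cerebellar level of miR-216b-5p and pup 3 that of miR-217-5p. MiR-216a-5p rested on few reads in the striatum/thalamus, where 20 counts were found over 4 libraries against 525 in the cerebellum, a ratio of 22.6 with an exact 95% counting interval of 14.5 to 37.2. It is among the 42 miRNAs under 10 CPM in a region and was tested only because of the other. Its fitted log2 fold change was -4.45 (SE 0.40, adjusted p = 1.43e-05), and that of its 3p arm was -2.53 (SE 0.45, adjusted p = 8.95e-04). The hairpins lie at chr11:28746191-28746276, chr11:28757012-28757083, and chr11:28763728-28763835, all on the plus strand, and the last 2 are in an intron of Gm12082.

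In the family of miR-15, miR-16, miR-195, and miR-497, which represses cyclins, 7 of 10 tested members were higher in the cerebellum (against 27.7% of all miRNAs), none was higher in the striatum/thalamus, and the median log2 fold change was -2.41. MiR-497a-5p was at 35.1, 30.8, 29.3 and 19.8 CPM in the striatum/thalamus and 558.5, 451.6, 374.9 and 409.4 CPM in the cerebellum (log2 fold change -3.89, SE 0.25, adjusted p = 3.24e-06). MiR-195a-5p, cut from the neighboring hairpin, was at 21.1, 33.3, 51.4 and 20.3 CPM and 547.3, 366.5, 419.6 and 530.6 CPM (log2 fold change -3.86, SE 0.35, adjusted p = 1.43e-05), and its 3p arm had a log2 fold change of -3.75 (SE 0.30, adjusted p = 9.23e-06). Both hairpins lie within chr11:70234717-70235135 on the plus strand. MiR-195a-3p is among the 42 miRNAs under 10 CPM in a region and was tested only because of the other. The abundant members moved by less, miR-16-5p from 1779 ± 999.4 to 8512 ± 1608 CPM (log2 fold change -2.31, SE 0.33, adjusted p = 2.22e-04) and miR-15b-5p from 1389 ± 266.3 to 7208 ± 1945 CPM (log2 fold change -2.28, SE 0.21, adjusted p = 2.07e-05). MiR-322-5p, which has the same seed but lies on the X chromosome, averaged 25.8 ± 2.87 and 28.7 ± 9.16 CPM and was not called (log2 fold change -0.03, SE 0.35, adjusted p = 0.961).

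In the miR-17/92 and miR-106b/25 clusters, which promote proliferation and repress the cell-cycle inhibitor p21, 12 of 13 tested miRNAs were higher in the cerebellum, again against 27.7%, and the median log2 fold change was -2.47. Their levels summed to 1776, 2058, 2256 and 1455 CPM in the striatum/thalamus of pups 2, 3, 6, and 8 and to 13369, 10583, 9830.1 and 11922 CPM in the cerebellum. The miR-106b/25 hairpins lie at chr5:138165321-138165818 (minus strand) in Mcm7, a subunit of the helicase that licenses DNA replication. MiR-25-3p was found at 331.4, 492.5, 569.8 and 337.2 CPM in the striatum/thalamus and 4459, 3809, 3489 and 4328 CPM in the cerebellum (log2 fold change -3.16, SE 0.27, adjusted p = 1.01e-05). MiR-93-5p was at 868.4, 1050.1, 1136 and 597.7 and 6180.0, 4524, 4712 and 5596 CPM (log2 fold change -2.47, SE 0.26, adjusted p = 4.05e-05). The regions did not overlap in either, and the spread among the 4 pups was smaller than the gap between them. MiR-106b-5p had a log2 fold change of -3.28 (SE 0.35), and its cerebellar levels differed little among pups, from 231.7 to 269.7 CPM. From miR-17/92, in exons of Mir17hg at chr14:115043671-115044263, miR-17-5p averaged 62.3 ± 19.1 and 351.1 ± 83.4 CPM (log2 fold change -2.44, SE 0.25, adjusted p = 3.83e-05), and miR-18a-5p averaged 3.06 ± 2.40 and 35.7 ± 2.52 CPM (log2 fold change -3.58, SE 0.61, adjusted p = 6.24e-04). MiR-17-5p and miR-20a-5p lie within 2 single-base edits of each other, so that their reads may be divided with error. MiR-25-5p, the minor arm of miR-25, was found with 17 counts in the striatum/thalamus and 235 in the cerebellum, a ratio of 11.9 (exact 95% counting interval 7.26 to 20.7). MiR-18a-5p and miR-25-5p are among the 42 miRNAs under 10 CPM in a region and were tested only because of the other.

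MiR-206-3p, a miRNA of skeletal muscle, was higher in the cerebellum. It was at 18.2, 47.9, 42.7 and 33.1 CPM in the striatum/thalamus and at 544.3, 376.1, 387.7 and 355.9 CPM in the cerebellum, so that the 4 cerebellar libraries were all above the others (log2 fold change -3.49, SE 0.34, adjusted p = 2.80e-05). In the cortex of the same pups it averaged 8.08 ± 2.70 CPM. MiR-1a-3p, which is abundant in muscle, was at 33.4, 69.6, 92.6 and 32.1 CPM and 44.958, 62.1, 124.7 and 125.5 CPM and was not called (log2 fold change -0.56, SE 0.34, adjusted p = 0.168). Of the 10 muscle-type miRNAs in the files, 8 were too low to be tested, among them miR-133a-3p with 27 counts over the striatum/thalamus libraries and 85 over the cerebellar ones and miR-133b-3p with 5 (0 to 4 a library) and 28 (5 to 9 a library), and miR-133a-5p, miR-1a-1-5p, and miR-499-3p were at 0 in all 8. The part of muscle tissue in the level of miR-206-3p was not tested. Its hairpin lies at chr1:20679010-20679082, in an exon of Gm28653.

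The miRNAs of the Hox gene clusters mark the posterior neural tube. All 3 tested were higher in the cerebellum (against 27.7% of all miRNAs), with a median log2 fold change of -2.20. MiR-10a-5p was at 67.9, 103.8, 125.8 and 74.2 CPM in the striatum/thalamus and at 235.2, 1204, 349.3 and 381.9 CPM in the cerebellum (log2 fold change -2.20, SE 0.35, adjusted p = 4.43e-04). The cerebellum of pup 3 was far above the other 3 cerebellar libraries, and without pup 3 the log2 fold change was -1.76 (adjusted p = 0.00131). MiR-10b-5p, 367.9, 624.9, 414.2 and 440.4 CPM in the cerebellum and 88.4, 109.6, 143.04 and 53.4 CPM in the striatum/thalamus, also peaked in that library (log2 fold change -2.20, SE 0.29, adjusted p = 1.31e-04), as did miR-615-3p with 72.6, 130.6, 40.6 and 48.8 CPM against 19.9, 5.83, 10.6 and 7.91 CPM (log2 fold change -2.59, SE 0.47, adjusted p = 9.29e-04). MiR-10a-5p and miR-10b-5p lie within 2 single-base edits of each other, and the split of reads between them is uncertain. The remaining 5 members, of the miR-196 family and the 3p arms, had at most 8 counts in any library.

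Among miRNAs that mark other cells, those of oligodendrocytes were higher in the cerebellum in 4 of 5 tested (against 27.7% of all miRNAs), with summed levels of 3216, 3970.4, 5252 and 2240.0 CPM in the striatum/thalamus and 6266, 7090.4, 7928 and 7594 CPM in the cerebellum. MiR-219a-2-3p, which made up most of these sums, was at 2656, 3247, 4185 and 1823 and 5193, 6198, 6933 and 6342 CPM (log2 fold change -1.02, SE 0.23, adjusted p = 0.00374). The 5p arm of miR-219a was not among the 5. The 4 tested miRNAs of the miR-199 and miR-214 families, known from mesenchymal cells, were all higher in the cerebellum (against 27.7% of all miRNAs). MiR-199a-3p was at 21.7, 78.8, 82.1 and 46.966 and 141.4, 138.6, 136.1 and 173.5 CPM (log2 fold change -1.41, SE 0.35, adjusted p = 0.00536). It lies within 2 single-base edits of miR-199b-3p, also among the 4, and the split of reads between them is uncertain. Of the ciliated and choroid plexus miRNAs, 2 of 6 tested were higher in the cerebellum, a share near the 27.7% of all miRNAs, and their summed level was 1919, 2619, 2418 and 2077 CPM in the striatum/thalamus and 10275, 4682, 2565 and 4618 CPM in the cerebellum. The cerebellum of pup 2 held the most, and the cerebellum of pup 6 was within the range of the striatum/thalamus. Most of that sum in the cerebellum was the choroid plexus miRNA miR-204-5p, at 9309, 4224, 2299 and 4176 CPM (log2 fold change -1.14, SE 0.34, adjusted p = 0.0136). The order of the summed level was therefore largely that of miR-204-5p and does not describe the other members. The other call, of miR-34c-5p, was lost without pup 2 (adjusted p = 0.167) or pup 3 (adjusted p = 0.118). In the introns of Htr2c, 2 of 6 tested miRNAs were higher in the cerebellum and 1 in the striatum/thalamus (against 27.7% and 33.3% of all miRNAs). From this gene, a serotonin receptor gene of the choroid plexus and of neurons, miR-1298-5p was at 158.1, 178.3, 225.6 and 131.5 CPM in the striatum/thalamus and 1916, 800.4, 132.4 and 892.00 CPM in the cerebellum, so that the cerebellum of pup 6 did not share the excess of the others (log2 fold change -1.99, SE 0.61, adjusted p = 0.0158). Without pup 2 it was no longer called (log2 fold change -1.47, adjusted p = 0.103). The Htr2c miRNAs gave 0 calls of 6 in HIBI pups, against 55.1% of all miRNAs there. In HIBI pups, 1 of the 6 ciliated and choroid plexus miRNAs was higher in the striatum/thalamus and 0 in the cerebellum (against 24.9% and 30.2% of all miRNAs there). The part of choroid plexus tissue in these cerebellar levels was not tested.

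None of the 4 tested erythrocyte miRNAs was called (against 60.9% of all miRNAs). Of these, miR-451a ranged widely, with 58.6, 128.8, 358.1 and 64.8 CPM in the striatum/thalamus and 148.7, 176.03, 215.5 and 513.98 CPM in the cerebellum (log2 fold change -0.90, SE 0.49, adjusted p = 0.13). It was called without pup 6 (adjusted p = 0.0165), in DESeq2 (adjusted p = 0.0409), and with no low count filter (adjusted p = 0.00713). MiR-144-5p, of the same transcript and too low to be tested, had 6 counts in the striatum/thalamus (0 to 3 a library) and 61 in the cerebellum (3 to 34 a library), and miR-144-3p had 2 and 8. In HIBI pups, 2 of the 4 tested erythrocyte miRNAs were higher in the striatum/thalamus and 1 in the cerebellum (against 24.9% and 30.2% of all miRNAs there). Of 4 tested endothelial and mural miRNAs, 1 (miR-143-3p) was higher in the cerebellum, a share near the 27.7% of all miRNAs. This call (log2 fold change -0.59, SE 0.21, adjusted p = 0.0303) was lost without pup 3 (adjusted p = 0.148) or pup 8 (adjusted p = 0.0931) and without the pup block (adjusted p = 0.0505). The endothelial miR-126a-3p averaged 1878 ± 857.8 and 2914 ± 900.8 CPM and was not called (log2 fold change -0.59, SE 0.25, adjusted p = 0.0567), but it was called in 8 of 12 alternatives (adjusted p = 0.0166 with upper quartile scaling to 0.0483 with library size only). Of the 4 tested myeloid miRNAs, 1 was higher in the striatum/thalamus and 1 in the cerebellum (against 33.3% and 27.7% of all miRNAs). The 1 higher in the cerebellum was miR-155-5p, induced in activated immune cells. It was at 5.86, 23.3, 23.5 and 9.39 CPM in the striatum/thalamus and 83.9, 51.9, 52.5 and 85.2 CPM in the cerebellum (log2 fold change -2.15, SE 0.48, adjusted p = 0.00328). MiR-223-3p, of granulocytes and monocytes, was at 10.5, 25.002, 27.4 and 12.9 and 37.6, 14.4, 26.9 and 39.5 CPM and was not called (adjusted p = 0.319). In HIBI pups, 3 of the 4 myeloid and 3 of the 4 endothelial and mural miRNAs were higher in the cerebellum (against 30.2% of all miRNAs there). In either list, 0 were higher in the striatum/thalamus of those pups (against 24.9%).

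**Figure D2:**
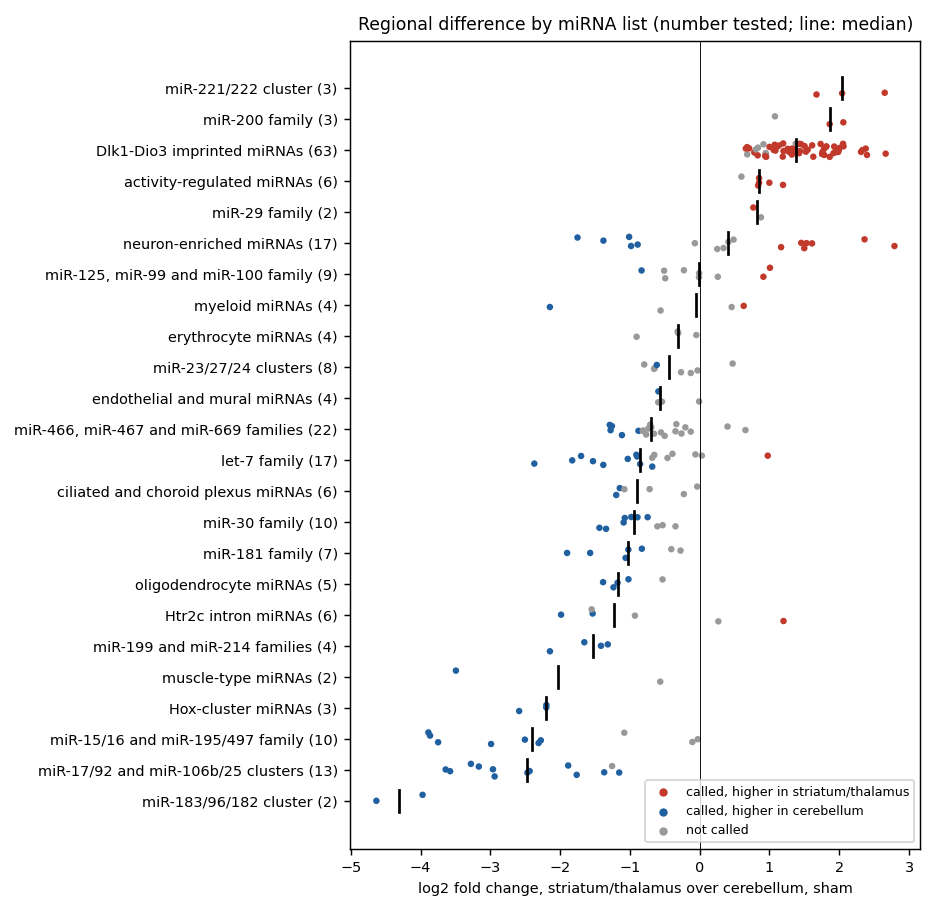
Log2 fold change of the striatum/thalamus over the cerebellum in sham pups (x axis) for each tested member of 24 lists of miRNAs (y axis, number tested in parentheses), with a vertical line at the median of the list. All tested members of the Dlk1-Dio3 list lie above 0 and all of the miR-17/92 and miR-106b/25 list below 0, whereas the neuron-enriched list has called members on both sides.

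The largest single locus with an excess in the striatum/thalamus was Dlk1-Dio3, an imprinted domain whose noncoding transcripts carry many miRNA hairpins and are read from the maternal chromosome. Of 63 tested members, 56 were called, all 56 higher in the striatum/thalamus, against 33.3% of all miRNAs in that direction. The median log2 fold change was 1.38, and all 63 were above 0, from 0.66 to 2.67. Their levels summed to 211474, 204008, 201125 and 211083 CPM in the striatum/thalamus of pups 2, 3, 6, and 8, and to 51650.5, 57759.8, 91987 and 81566 CPM in the cerebellum. The 4 libraries of the striatum/thalamus were close to each other, while in the cerebellum pups 6 and 8 were above pups 2 and 3. This order of the cerebellar libraries held for 45 of the 63 members and for 129 of all 430 miRNAs. The 61 miRNAs with a hairpin mapped to the locus on chromosome 12 made up 37.1% of all miRNAs called higher in the striatum/thalamus (53 of 143). Without them 369 miRNAs were left, of which 90 were higher in the striatum/thalamus and 119 in the cerebellum, and the median log2 fold change was -0.27. Of the 63 tested members of the list, 58 had a mapped hairpin, 52 of them called, so the others stayed among the 369. The 61 also held miR-673-3p, miR-673-5p, and miR-1247-5p, which are not on the list.

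MiR-434-3p, the 1 miRNA of the locus among the 10 most abundant of all, was found at 51958, 45800.1, 41100.3 and 42624 CPM in the striatum/thalamus and 12561, 13332, 20911 and 17237 CPM in the cerebellum (log2 fold change 1.61, SE 0.26, adjusted p = 4.43e-04). MiR-433-3p followed with 35341, 28129, 25379.6 and 42003 CPM and 5997, 7466, 10348 and 9534 CPM (log2 fold change 2.06, SE 0.27, adjusted p = 1.31e-04). In both, the lowest library of the striatum/thalamus was above the highest of the cerebellum. Large differences were found at several places along the locus. MiR-770-3p, at its Meg3 end (chr12:109563692-109563785), averaged 9638 ± 2363 and 1925 ± 375.8 CPM (log2 fold change 2.40, SE 0.26, adjusted p = 4.84e-05). MiR-1188-5p, in an intron of Rian (chr12:109611822-109611941), was at 125.9, 200.4, 194.4 and 167.1 and 17.3, 39.6, 50.7 and 39.1 CPM (log2 fold change 2.38, SE 0.26, adjusted p = 4.84e-05), and miR-487b-5p (chr12:109727333-109727414) at 26.4, 25.4, 44.2 and 24.7 and 4.32, 6.96, 6.39 and 2.71 CPM (log2 fold change 2.67, SE 0.42, adjusted p = 4.43e-04). Of these, miR-487b-5p is among the 42 miRNAs under 10 CPM in a region and was tested only because of the other. Other members moved by less, such as miR-127-3p (log2 fold change 1.06, SE 0.21, adjusted p = 0.00159) and miR-379-5p (log2 fold change 1.14, SE 0.23, adjusted p = 0.00189).

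**Figure D3:**
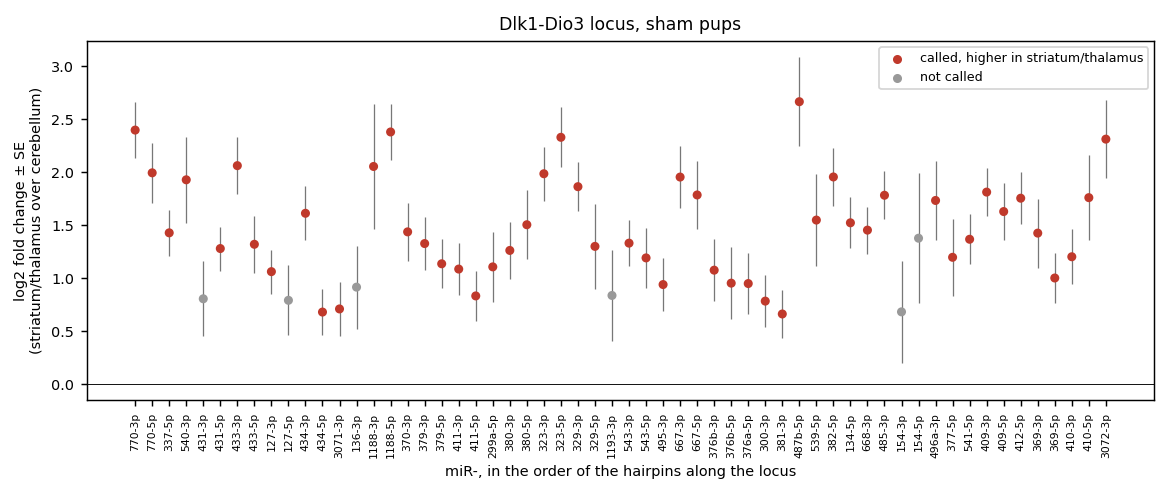
Log2 fold change of the striatum/thalamus over the cerebellum in sham pups (y axis, error bars SE) for the 58 tested Dlk1-Dio3 miRNAs with a mapped hairpin, in the order of their hairpins along the locus (x axis). All lie above 0, and 52 of the 58 were called.

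Outside that locus, miR-7080-5p had the largest fold change of all, and it is 1 of the 42 miRNAs that were under 10 CPM in a region and were tested only because of the other. It was at 48.019, 35.003, 22.1 and 54.9 CPM in the striatum/thalamus, whereas the cerebellum of pups 2, 3, 6, and 8 held 3, 0, 3, and 3 counts (log2 fold change 5.35, SE 0.57, adjusted p = 4.49e-05). The ratio of the 323 to the 9 counts was 41.8 after scaling, with an exact 95% counting interval of 21.7 to 92.2. The cortex was nearer the cerebellum, at 1.80, 3.19, 4.58 and 2.54 CPM. Its hairpin at chr8:123130106-123130172 (plus strand) overlaps an exon of Cpne7, so that fragments of that transcript and the miRNA cannot be told apart from the counts. MiR-344d-3p was far more abundant and moved in the same direction, with 806.95, 546.7, 519.4 and 737.1 CPM in the striatum/thalamus and 79.2 ± 45.4 CPM (SD, n = 4) in the cerebellum, where no library passed 133.2 CPM (log2 fold change 3.28, SE 0.34, adjusted p = 4.05e-05). It has 3 hairpins on chromosome 7, the first at chr7:61683124-61683192.

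MiR-221 and miR-222 are a pair on the X chromosome (chrX:19146294-19146971, minus strand) that represses the cell-cycle inhibitor p27. They were higher in the striatum/thalamus in 3 of 3 tested products (against 33.3% of all miRNAs). MiR-222-3p was at 363.1, 357.1, 332.6 and 420.2 CPM in the striatum/thalamus and 30.7, 70.1, 87.2 and 74.8 CPM in the cerebellum (log2 fold change 2.65, SE 0.30, adjusted p = 5.84e-05). MiR-221-3p was at 733.8, 985.1, 655.7 and 658.02 and 137.5, 188.3, 222.8 and 236.7 CPM (log2 fold change 2.04, SE 0.25, adjusted p = 9.88e-05). In both, the cerebellum of pup 2 was the lowest library. The cortex was higher still, at 521.2 ± 99.3 and 1468 ± 116.1 CPM. MiR-760-3p was at 499.5, 389.6, 327.4 and 646.2 and 79.1, 53.5, 88.6 and 71.3 CPM (log2 fold change 2.73, SE 0.28, adjusted p = 3.48e-05), and miR-1224-5p, from an intron of Vwa5b2 (chr16:20604452-20604536), at 250.05, 363.4, 223.7 and 341.6 and 50.6, 58.9, 58.4 and 33.3 CPM (log2 fold change 2.63, SE 0.29, adjusted p = 4.84e-05). These groups did not overlap. At lower levels, miR-3102-5p.2-5p averaged 19.2 ± 0.984 and 3.91 ± 2.51 CPM (log2 fold change 2.48, SE 0.50, adjusted p = 0.00189), and miR-702-3p 20.7 ± 11.6 and 3.72 ± 1.86 CPM (log2 fold change 2.43, SE 0.55, adjusted p = 0.00333). Both miRNAs are among the 42 under 10 CPM in a region and were tested only because of the other. The hairpin of miR-702 overlaps an exon of Plod3.

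Of 17 tested neuron-enriched miRNAs, 7 were higher in the striatum/thalamus, 5 were higher in the cerebellum, and 5 were not called, shares near the 33.3% and 27.7% of all miRNAs. MiR-137, a regulator of neuronal differentiation and synapses, was higher in the striatum/thalamus. Its 5p arm was at 50.9, 55.4, 57.1 and 61.8 CPM there and at 4.76, 2.14, 19.6 and 15.1 CPM in the cerebellum (log2 fold change 2.79, SE 0.48, adjusted p = 6.55e-04), and the cerebellum of pups 6 and 8 was above that of pups 2 and 3. Its 3p arm was at 31.037, 22.1, 8.64 and 20.3 and 1.73, 1.07, 15.1 and 3.87 CPM, with pup 6 in reverse (log2 fold change 2.36, SE 0.78, adjusted p = 0.0231), and it was not called without pup 2 (adjusted p = 0.184) or pup 3 (adjusted p = 0.0907). The 3p arm is also 1 of the 42 miRNAs under 10 CPM in a region and was tested only because of the other. MiR-129-5p averaged 9501 ± 590.1 and 4521 ± 701.7 CPM (log2 fold change 1.17, SE 0.21, adjusted p = 8.90e-04). MiR-124-3p, a hallmark of neurons, was at 38704, 40360.0, 50817 and 39487 CPM and 37465, 28884, 26081 and 44517 CPM and was not called (log2 fold change 0.41, SE 0.26, adjusted p = 0.182). Its minor product miR-124-5p, at 182.1, 108.3, 114.2 and 126.1 and 500.6, 459.1, 371.7 and 540.7 CPM, was higher in the cerebellum in every pup (log2 fold change -1.75, SE 0.24, adjusted p = 1.51e-04). Higher in the cerebellum were also miR-218-5p (log2 fold change -1.01, SE 0.26, adjusted p = 0.00713) and miR-9-5p, at 28121, 43237, 62755 and 27595 CPM in the striatum/thalamus and 72601, 63388, 86877 and 102036 CPM in the cerebellum (log2 fold change -0.98, SE 0.29, adjusted p = 0.014). MiR-9-5p was not called without pup 2 (adjusted p = 0.0531) or pup 8 (adjusted p = 0.0706).

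MiR-132 and miR-212, which neuronal activity induces through CREB, were higher in the striatum/thalamus in 4 of 4 tested products of their hairpins at chr11:75173388-75173747. MiR-132-3p was at 2606, 2539, 1736 and 2010.2 CPM in the striatum/thalamus and 1532, 941.7, 1379.9 and 1378 CPM in the cerebellum (log2 fold change 0.85, SE 0.23, adjusted p = 0.00869), and its adjusted p was 0.0626 without pup 2 and 0.0831 without pup 3. MiR-212-5p was at 339.6, 300.4, 371.5 and 318.4 and 117.6, 125.7, 196.3 and 190.6 CPM (log2 fold change 1.19, SE 0.23, adjusted p = 0.00147). Neither miRNA overlapped between the regions. Of the 6 activity-regulated miRNAs, 5 were called, all higher in the striatum/thalamus (against 33.3% of all miRNAs), with a median log2 fold change of 0.85. Among these, miR-384-5p was not called under upper quartile scaling (adjusted p = 0.0578) or without pup 2 (adjusted p = 0.0945), pup 3 (adjusted p = 0.114), or pup 6 (adjusted p = 0.097). In HIBI pups, 3 of the 6 were higher in the striatum/thalamus and 1, miR-384-3p, in the cerebellum (against 24.9% and 30.2% of all miRNAs there). The miR-200 family, known from epithelia and the olfactory system, was low. It was higher in the striatum/thalamus in 2 of 3 tested (against 33.3% of all miRNAs). MiR-200b-3p was at 78.5, 60.4, 79.2 and 48.4 and 21.2, 19.3, 16.4 and 19.4 CPM (log2 fold change 1.86, SE 0.31, adjusted p = 5.16e-04).

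The most abundant miRNAs differed by smaller factors. The 10 highest held 54.3% to 54.7% of the counts in the striatum/thalamus and 54.2% to 56.2% in the cerebellum. MiR-125b-5p led in the striatum/thalamus, with 197954, 166315, 160748 and 219814 CPM against 103675, 87690.5, 92748 and 106690.0 CPM in the cerebellum (log2 fold change 1.01, SE 0.25, adjusted p = 0.00551). Let-7c-5p led in the cerebellum in mean level, with 132088, 90800.1, 86924 and 87416 CPM, while the striatum/thalamus held 35934, 57492, 59579 and 33459.6 CPM (log2 fold change -1.03, SE 0.29, adjusted p = 0.0108). MiR-181a-5p was at 18516, 16879.9, 16774 and 17073 CPM in the striatum/thalamus, nearly the same in each pup, and at 65399, 51827, 38929 and 66376 CPM in the cerebellum (log2 fold change -1.57, SE 0.24, adjusted p = 3.86e-04). MiR-26a-5p averaged 23114 ± 5507 and 51956 ± 15480.0 CPM (log2 fold change -1.07, SE 0.30, adjusted p = 0.0108), and its adjusted p was 0.0502 without pup 2. Not called were miR-125a-5p (log2 fold change 0.26, SE 0.27), let-7a-5p (-0.39, SE 0.29), and miR-128-3p (-0.07, SE 0.29), whose sign turned without pup 8 (0.18). MiR-128-3p was at 84799.6 to 105518 CPM in the cortex, above all 8 libraries of the other regions.

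The let-7 family, whose members accumulate as cells differentiate, was higher in the cerebellum in 10 of 17 tested (against 27.7% of all miRNAs), with 1 exception in the other direction. Let-7b-5p was at 9053, 13860.0, 13772 and 8608 CPM in the striatum/thalamus and 68854, 48927, 35494 and 25395 CPM in the cerebellum (log2 fold change -1.83, SE 0.30, adjusted p = 5.14e-04). Let-7e-5p, whose sequence lies within 2 single-base edits of let-7a-5p, was at 7571, 14333, 14415 and 8094 and 7036, 5007, 6110.0 and 5009 CPM (log2 fold change 0.98, SE 0.26, adjusted p = 0.00901) and was the exception. In the striatum/thalamus, pups 3 and 6 were above pups 2 and 8 for both. Reads of these near-identical miRNAs may be divided with error. A similar split was found in the miR-25/92 seed group, where miR-25-3p and miR-92a-3p (log2 fold change -1.37, SE 0.26, adjusted p = 0.00122) were higher in the cerebellum and miR-92b-3p, at 4925, 4227, 3734 and 6351 and 3363, 2862, 2259.8 and 2622 CPM, was higher in the striatum/thalamus (log2 fold change 0.86, SE 0.23, adjusted p = 0.00789). The miR-30 family had 7 of 10 tested higher in the cerebellum and the miR-181 family 5 of 7, both against 27.7% of all miRNAs, with none in the other direction in either. Of the 8 tested miRNAs of the miR-23/27/24 clusters, 1 was higher in the cerebellum (against 27.7% of all miRNAs), and 7 were not called. Among those not called, miR-24-3p was at 3291 ± 562.1 and 4156 ± 258.8 CPM (adjusted p = 0.279). The 22 tested miRNAs of the miR-466, miR-467, and miR-669 families come from hairpins that are repeated copies, many of them in an intron of Sfmbt2. Their reads are hard to assign. Of the 22, 5 were higher in the cerebellum (against 27.7% of all miRNAs) and 17 were not called (median log2 fold change -0.70). The family of miR-125, miR-99, and miR-100 had 2 of 9 higher in the striatum/thalamus and 1 in the cerebellum (against 33.3% and 27.7% of all miRNAs). The miR-29 family had 1 of 2 higher in the striatum/thalamus (against 33.3%). That call, of miR-29a-3p (log2 fold change 0.77, SE 0.25, adjusted p = 0.0228), was lost under upper quartile scaling (adjusted p = 0.0668), with the filters at 1 CPM (adjusted p = 0.068) or none (adjusted p = 0.0842), and without pup 2 (adjusted p = 0.183) or pup 3 (adjusted p = 0.0906).

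MiR-7, which binds the circular RNA Cdr1as at many sites and represses alpha-synuclein, was chosen for description after its values were seen, because its hairpins gave products in opposite directions. MiR-7a-5p, cut from hairpins at chr13:58392779-58392886 in an intron of Hnrnpk and at chr7:78888277-78888373, was at 3768, 3409, 3734 and 3430.0 CPM in the striatum/thalamus and 467.3, 543.1, 1371 and 1153 CPM in the cerebellum (log2 fold change 2.25, SE 0.29, adjusted p = 1.31e-04). MiR-7b-5p, from chr17:56242988-56243098, was at 1201, 1258, 1329 and 1197 and 238.6, 345.6, 551.6 and 503.1 CPM (log2 fold change 1.76, SE 0.25, adjusted p = 2.08e-04). In both, the striatum/thalamus was nearly constant over the pups and the cerebellum was higher in pups 6 and 8 than in pups 2 and 3. The 3p products, whose sequences tell the 3 hairpins apart, are printed with the seed in capitals.
miR-7a-1-3p: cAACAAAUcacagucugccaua
miR-7a-2-3p: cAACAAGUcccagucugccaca
miR-7b-3p: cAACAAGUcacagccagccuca
MiR-7a-2-3p was at 623.1, 582.1, 395.5 and 617.97 CPM in the striatum/thalamus and 110.7, 98.4, 173.5 and 168.5 CPM in the cerebellum, the direction of the 5p products (log2 fold change 2.12, SE 0.28, adjusted p = 1.31e-04). MiR-7a-1-3p, from the Hnrnpk hairpin, went the other way, with 17.6, 33.3, 22.6 and 20.8 and 48.4, 40.7, 56.6 and 68.2 CPM (log2 fold change -1.11, SE 0.33, adjusted p = 0.0143), and its adjusted p was 0.0557 without pup 8. MiR-7b-3p was also higher in the cerebellum, at 36.3, 30.4, 13.4 and 47.955 and 117.6, 59.9, 52.5 and 86.4 CPM (log2 fold change -1.27, SE 0.31, adjusted p = 0.00505). Both were low beside the 5p products, and neither overlapped between the regions. MiR-7a-5p and miR-7b-5p lie within 2 single-base edits of each other, so that part of the reads of 1 may be counted for the other.

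**Figure D4:**
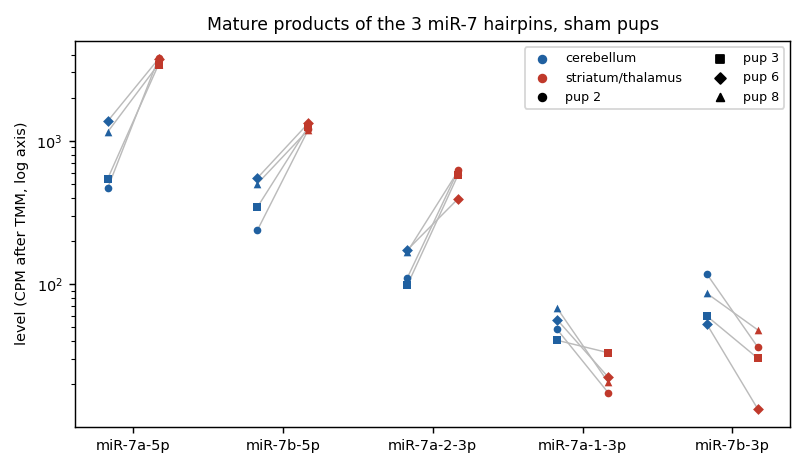
Level (y axis, CPM after TMM on a log axis) of the 5 mature products of the 3 miR-7 hairpins in the cerebellum and striatum/thalamus of each sham pup, with a line joining the regions of a pup. The lines rise toward the striatum/thalamus for miR-7a-5p, miR-7b-5p, and miR-7a-2-3p and fall for miR-7a-1-3p and miR-7b-3p in all 4 pups.

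Such a split was unusual. For 77 hairpins with both arms tested and assigned to that hairpin alone, 69 had both arms on the same side of 0, and of 40 with both arms called 39 were called in the same direction. The 1 hairpin called in opposite directions was that of miR-7b. Across the 77 hairpins the log2 fold changes of the arms had a Pearson correlation of 0.84, a description over hairpins cut from shared transcripts and counted in the same libraries. In the introns of Htr2c, the arms also differed. MiR-448-5p was higher in the striatum/thalamus (log2 fold change 1.20, SE 0.35, adjusted p = 0.0136; adjusted p = 0.0656 without pup 6), whereas miR-448-3p had a log2 fold change of -0.93 (SE 0.41, adjusted p = 0.072). MiR-448-3p was called in 6 of 12 alternatives (adjusted p = 0.0043 with no low count filter to 0.04995 with library size only). Neighbors mostly moved together. Of 19 groups of at least 3 tested miRNAs whose hairpins lay within 10000 bases of the next, 16 had all members on the same side of 0. The Dlk1-Dio3 locus gave several of these 16 groups, and many groups held both arms of 1 hairpin. The 16 are therefore not separate loci. A group on the X chromosome (chrX:7237683-7248497) holds miR-362, miR-500, miR-501, and miR-532. It was higher in the cerebellum in 5 of 6 tested (against 27.7% of all miRNAs). MiR-362-3p was at 4.10, 5.0005, 1.92 and 2.97 and 24.6, 20.3, 31.1 and 36.4 CPM (log2 fold change -2.90, SE 0.47, adjusted p = 4.79e-04). It is 1 of the 42 miRNAs under 10 CPM in a region and was tested only because of the other.

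Shared seeds were also compared. Among the 364 miRNAs with a matched sequence, 11 seeds were shared by at least 3, and 3 of these seeds had members called in both directions. They were AUUGCAC of miR-25 and miR-92, GAGGUAG of let-7, and GUAAACA of miR-30 and miR-384. Tested miRNAs without a matched sequence, such as miR-30b-5p and miR-30d-5p, were left out. Base composition moved slightly with the difference. The median GC content of the mature sequences was 52.2% for those higher in the striatum/thalamus, 45.5% for those higher in the cerebellum, and 52.3% for those not called, and over the 364 matched miRNAs GC content and log2 fold change had a Pearson correlation of 0.20 and a Spearman correlation of 0.20. The miRNAs share libraries and loci, and the part of base composition in the differences was not tested.

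The cortex of the same 4 pups gave a further value for each called miRNA. Of the 143 miRNAs higher in the striatum/thalamus, the mean cortical level was beyond the striatum/thalamus for 47, between the regions but nearer the striatum/thalamus for 52, nearer the cerebellum for 28, and below the cerebellum for 16. For the 119 higher in the cerebellum, the cortex was beyond the striatum/thalamus (lower still) for 26, nearer the striatum/thalamus for 49, nearer the cerebellum for 37, and above the cerebellum for 7. These counts are a description on the log2 scale, since the cortical libraries come from the same pups. The cortex was placed at the log2 of its mean level, and each region at the mean of its log2 levels. For the same values the first is never below the second, so the cortex may be placed too high.

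The regional differences were measured again in the 4 HIBI pups, which share no library with the sham pups. There, 237 of the 430 miRNAs (55.1%) were called between the regions, 107 (24.9%) higher in the striatum/thalamus and 130 (30.2%) higher in the cerebellum. Of the 262 called in sham pups, 186 were called in the same direction in HIBI pups (71.0% of the sham calls and 78.5% of the HIBI calls), 0 were called in the opposite direction, and 246 had the same sign. The log2 fold changes of the 2 sets had a Pearson correlation of 0.89 over the 430 miRNAs. Of the 63 Dlk1-Dio3 miRNAs, 31 were called higher in the striatum/thalamus in HIBI pups and 0 lower, with a median log2 fold change of 0.79. MiR-182-5p had a log2 fold change of -3.86 in HIBI pups (adjusted p = 1.30e-05), miR-216b-5p of -4.16 (adjusted p = 4.91e-07), miR-206-3p of -3.72 (adjusted p = 6.09e-07), and miR-7080-5p of 4.07 (adjusted p = 2.09e-05).

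**Figure D5:**
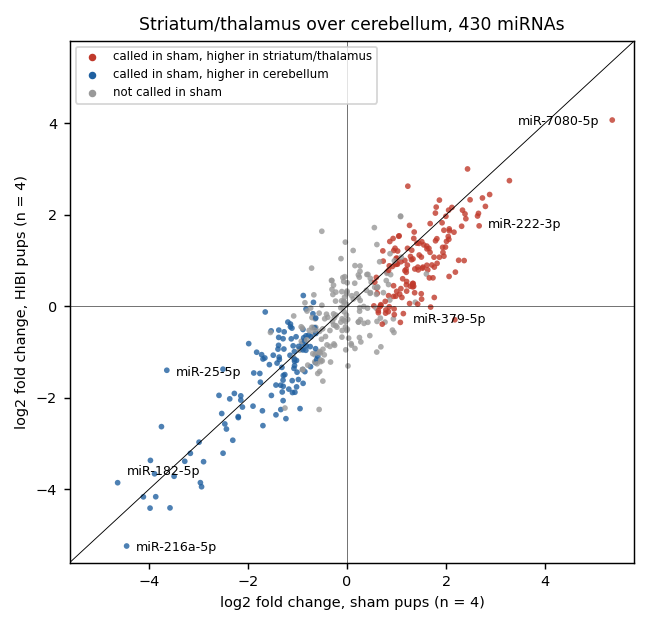
Log2 fold change of the striatum/thalamus over the cerebellum in sham pups (x axis) and in HIBI pups (y axis) for 430 miRNAs, colored by the call in sham pups, with the line of equal values. The points follow the line (Pearson correlation 0.89), and miR-379-5p and miR-25-5p lie among those farther from it.

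When the difference between HIBI and sham pups in this regional contrast was tested as an interaction, 0 of 430 miRNAs were called by edgeR, with 54 at an unadjusted p under 0.05 and a smallest adjusted p of 0.238. Among the lowest p-values were miR-423-5p (log2 fold change -0.88 in sham and 0.23 in HIBI pups, adjusted p of the difference 0.238), miR-379-5p (log2 fold change 1.14 in sham and -0.16 in HIBI pups, adjusted p of the difference 0.238), miR-31-5p (log2 fold change 2.19 in sham and 0.74 in HIBI pups, adjusted p of the difference 0.238), and miR-25-5p (log2 fold change -3.64 in sham and -1.40 in HIBI pups, adjusted p of the difference 0.238). Of these, miR-423-5p and miR-31-5p were chosen after their values were seen. With 4 pups a group these p-values do not show that the contrasts were equal.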

How the data were processed

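MiRNA-Seq libraries were made from 200 ng RNA of each region of each pup. Reads were matched by the authors with bowtie2 to the mature mouse entries of miRBase, and the authors deposited a raw count of reads per mature miRNA and library, without normalization. Versions, the miRBase release, and the handling of reads that fit several miRNAs are not given in the sources used here. The same tables hold log2 fold changes, average log2 CPM, p-values, and false discovery rates of the authors' own HIBI comparison, which were not used. No test or library size included the 20 entries of castor bean, at 0.000131% of all counts.

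The tests ran in edgeR 4.0.16 under R 4.3.3, and DESeq2 1.42.0 and limma 3.58.1 served as alternatives. Mouse miRNAs with an average above 10 CPM over the 8 sham libraries were kept, libraries were scaled by TMM, and the regions were compared by the quasi-likelihood test with the pup as a block, since both regions came from the same animal. Deviations of the regions of a pup from their group means correlated at 0.102, -0.113, 0.171, and -0.0615 in pups 2, 3, 6, and 8. The SE is the log2 fold change divided by the square root of the F statistic. Printed levels were scaled over 24 libraries, which moved regional differences by a median of -0.0844 on the log2 scale against the fit. Printed counting intervals cover counting error only. The scripts were tested on simulated data. Named miRNAs were the 12 with the largest change in each direction among those called with the same sign in all 4 pups, the 10 most abundant, and members of 24 lists. Other miRNAs named were chosen after their values were seen. The miRNAs compared and the lists were chosen with earlier results of these data known. Hairpin positions are those of GRCm38 with GENCODE M21 genes. The mRNA panel was not analysed here.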

Additional observations from a re-analysis of the deposited data

Results flagged for a closer look

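In the groups of 4 libraries of the miRNAs named, 10 of 208 groups had a highest or lowest library whose gap to the next exceeded the 95% limit of Dixon's test for 4 values. Chance flags about 1 group in 20. In the cerebellum, pup 2 stood apart for 5 miRNAs. Its level of let-7c-5p was 132088 CPM (others 86924 to 90800.1), of miR-106b-5p 269.7 CPM (231.7 to 236.3), of miR-1298-3p 86.5 CPM (52.5 to 55.6), of miR-15b-5p 10104 CPM (6018 to 6576), and of miR-206-3p 544.3 CPM (355.9 to 387.7). Pup 3 stood apart in the cerebellum for miR-10a-5p with 1204 CPM (235.2 to 381.9) and for miR-7080-5p, which was at 0 (1.16 to 1.37 CPM), a difference of 3 counts. Pup 8 stood apart in the cerebellum for miR-199a-3p with 173.5 CPM (136.1 to 141.4). In the striatum/thalamus, pup 6 stood apart for miR-124-3p with 50817 CPM (38704 to 40360.0) and for miR-487b-5p with 44.2 CPM (24.7 to 26.4).

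Outside the mouse entries, 23 counts fell on entries of castor bean in the 8 libraries, at most 5 in 1 library (the striatum/thalamus of pup 6), above the limit of 3 that a count of 0 allows. No miRNA differed between HIBI and sham pups in the regional contrast at an adjusted p under 0.05, so none is listed on that ground.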

How the results depend on the processing

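The number of calls stayed within 1.5 times of the main count under every alternative run. In sham pups, 262 miRNAs were called, 273 without the pup as a replicate block (268 of them over 1.5-fold, against 260), 268 with RLE size factors, 258 with library size only, 269 with upper quartile scaling, 283 in DESeq2, 268 in limma-voom, 273 of the miRNAs above 1 CPM, 275 with no low count filter, and 199 to 256 when 1 pup was left out. Without the replicate block, among the miRNAs followed through the alternatives, calls changed for miR-9-3p and miR-143-3p, which lost theirs, and for miR-448-3p, which gained one. Upper quartile scaling moved the median of all miRNAs to -0.20 and the no-filter fit to -0.14. Under upper quartile scaling 121 calls were higher in the striatum/thalamus and 148 in the cerebellum, and medians moved for the miR-466, miR-467, and miR-669 (-0.89), neuron-enriched (0.22), and miR-125, miR-99, and miR-100 (-0.20) lists. In HIBI pups, 237 calls became 204 without the block, 237 with library size only, and 192 to 228 with 1 pup left out. The interaction gave 0 calls in each fit, with 39 to 66 at an unadjusted p under 0.05. Of the 104 miRNAs followed, 82 kept their direction and side of the threshold in all 12 alternatives. With 1 pup left out the sign turned for miR-322-5p (-0.28 to 0.12), for miR-128-3p (-0.26 to 0.18), neither of them called, and for the median of the myeloid list (-0.36 to 0.25). The cause was not tested. At 10 CPM a library held 16.1 to 29.4 reads, so that small differences of low miRNAs were not detectable at this depth.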

Other observations

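Several miRNAs outside the lists also differed and, except for miR-135a-1-3p, which the rule for named miRNAs gave, were picked after their values were seen. MiR-31-5p was at 157.5, 201.7, 256.8 and 151.3 CPM in the striatum/thalamus and 47.6, 32.6, 51.1 and 45.3 CPM in the cerebellum (log2 fold change 2.19, SE 0.26, adjusted p = 8.23e-05). MiR-423-5p went the other way, at 883.1, 881.3, 700.8 and 948.7 and 2413, 1567, 1284 and 1570.2 CPM (log2 fold change -0.88, SE 0.22, adjusted p = 0.00572). The 2 hairpins of miR-135a share their 5p product and differ in the 3p product. MiR-135a-1-3p, from chr9:106154124-106154213 in an intron of D030055H07Rik, was at 67.3, 89.2, 48.5 and 85.5 CPM in the striatum/thalamus and 4.32, 6.42, 19.2 and 15.9 CPM in the cerebellum (log2 fold change 2.88, SE 0.45, adjusted p = 4.41e-04). MiR-135a-2-3p, from chr10:92072086-92072185 in an intron of Rmst, was at 53.9, 97.5, 59.039 and 38.6 and 24.2, 18.2, 27.4 and 35.2 CPM (log2 fold change 1.27, SE 0.37, adjusted p = 0.0131) and was not called without pup 2 (adjusted p = 0.0634) or pup 3 (adjusted p = 0.0656). The shared miR-135a-5p was at 645.3, 1050.1, 466.1 and 572.00 and 188.9, 254.7, 628.3 and 565.9 CPM and was not called (log2 fold change 0.93, SE 0.40, adjusted p = 0.0608), and its cerebellar levels were higher in pups 6 and 8 than in pups 2 and 3. DESeq2 called it (adjusted p = 0.0212), as did the fits with no low count filter (adjusted p = 0.0279) and without pup 6 (adjusted p = 0.0152) or pup 8 (adjusted p = 0.025).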
